A study of Saccharomyces cerevisiae with 56 samples.

Results

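The N construct is PDZ domain 3 of PSD-95, a scaffold protein of excitatory synapses, with an added stretch that the labels call N, and every comparison here sets its binding scores against its abundance scores. Members were the missense variants with 1 or 2 substitutions that had a score in both assays, matched by their protein sequence. There were 39886 such variants, 1156 with 1 substitution and 38730 with 2, out of 156110 over the 4 constructs of the series. The domain without an extension (PDZ3) had 26830 and was used for 1 comparison near the end.

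Variants were grown in yeast (BY4742) under methotrexate for about 5 generations. Binding of N and abundance of N each had 3 input and 3 output libraries, 12 of the 56 libraries of the series, which the labels call biological replicates and the authors merged into 1 score per variant. Nothing in the table shows the spread between these cultures, so the p-values rest on the authors' error, widened by the spread of synonymous variants. The read depth is unknown. The mutated block ran from R312 to I377, 66 residues in the numbering of full-length PSD-95. No source used here gives the sequence of the N extension or of the ligand.

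PDZ domains hold the C-terminal end of a partner protein in a groove between their second strand and second helix, and a loop before the second strand, with the residues glycine, leucine, glycine and phenylalanine in this domain, receives the terminal carboxylate. Both assays rest on a split dihydrofolate reductase, an enzyme whose fragments, once joined, let yeast grow while methotrexate blocks its own copy. In the binding assay the enzyme's fragments sit on the domain and its ligand, and in the abundance assay growth follows the amount of soluble domain. Growth in the binding assay depends on how much domain a cell holds as well as on how well that domain binds.

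Scores were scaled within each assay so that the wild type stood at 0 and the median of the single nonsense variants at -1. On the deposited scale that nonsense median was -1.48 in binding (n = 61 variants) and -0.902 in abundance (n = 60), so a scaled unit stands for a larger step in binding. The median error of a single substitution was 0.0340 in binding and 0.0116 in abundance, on the deposited scale. Synonymous variants spread more than those errors, by an extra SD of 0.0417 in binding and 0.0406 in abundance, also on the deposited scale. This was added to every variant's error, as a variance, before scaling. The alternatives called errors multiplied by 2 and errors widened to late stops (from G345 on) left this extra variance out. They multiplied only the authors' errors of variant and wild type, so the full error was never multiplied. For late stops the factor was 1.70 in N binding, 3.24 in N abundance, 1 in PDZ3 binding and 3.28 in PDZ3 abundance. A difference below is scaled binding minus scaled abundance. It was called lower or higher when a two-sided normal test had a Benjamini-Hochberg adjusted p under 0.05, over all 39886 variants or over all positions.

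The single stop codons, whose median set the scale, were also viewed by their place, which is no independent check of that scale. For stops from G345 on, the median was -1.0 in binding and -1.07 in abundance (n = 30), and 5 of the 30 were called higher. For stops from R312 to G344 it was -0.998 in binding and -0.729 in abundance (n = 30), and 18 of the 30 were called lower. Early stops kept some abundance signal and lost binding. Among single missense substitutions, 146 lay below -0.8 in both assays, and 16 of the 105 calls of higher binding and 4 of the 313 calls of lower binding came from these.

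Binding was hit more widely than abundance. The median single substitution scored -0.197 in binding and -0.102 in abundance, and 31.6% of substitutions fell below -0.5 in binding, against 18.9% in abundance. The mean difference over the 1156 was -0.0880. Both scores moved together over substitutions (Pearson r = 0.726, n = 1156, points that share libraries and a wild type). Of the single substitutions, 313 were lower in binding (27.1%) and 105 were higher (9.08%). On the unscaled score these counts were 526 and 55, and on the growth rate 493 and 61, so the balance between both directions depends on the scale.

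The off-diagonal variants lay almost wholly on 1 side. Of 739 substitutions that kept abundance above -0.2, 98 (13.3%) fell below -0.5 in binding. The reverse, abundance below -0.5 with binding above -0.2, was met by 1 substitution, G322I, with binding at 0.0911 and abundance at -0.555. The 98 stood at 21 positions, with 46 (46.9%) at listed groove residues and 52 at others, while 141 of the 739 that kept abundance (19.1%) were groove substitutions. The groove list held R318, G322, L323, G324, F325, N326, I327, V328, E331, S339, H372 and A376. It left out G329 and G330 of strand 2, a wall of the groove, and these held 16 and 14 of the 52. Among substitutions that kept abundance, binding was lost by 18 of 19 at H372, 16 of 16 at G329, 14 of 15 at G330, 12 of 18 at A376, 8 of 9 at I327 and 6 of 8 at I336.

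**Figure D1:**
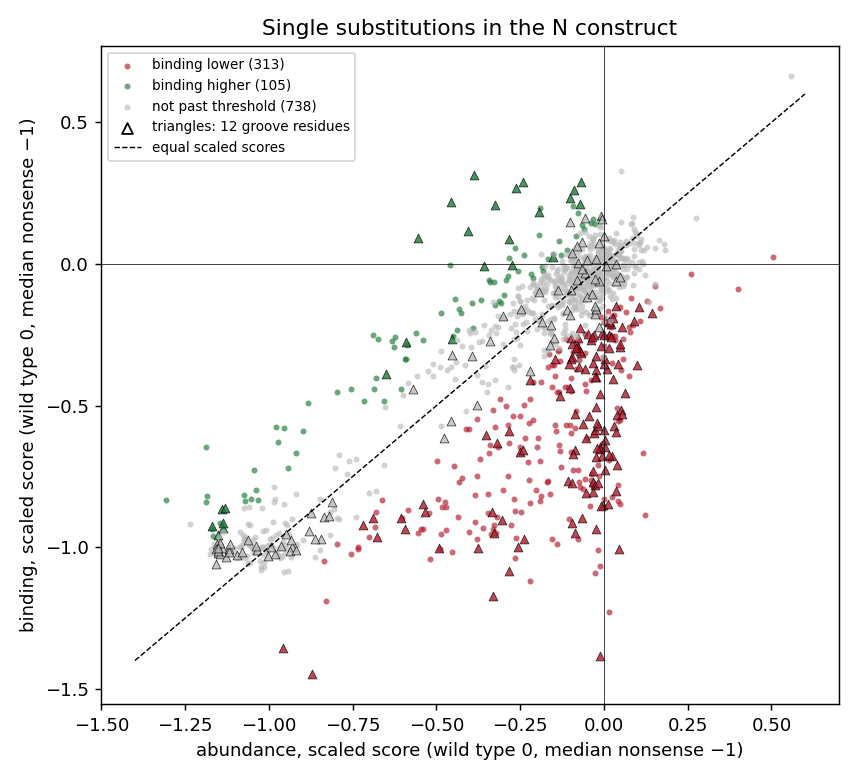
Scaled binding score (vertical axis) against scaled abundance score (horizontal axis) of the 1156 single substitutions, 1 point each, coloured by the call of the difference, with triangles for the 12 groove residues and a dashed line where both scores are equal. Points called lower form a column near an abundance of 0 that reaches down to binding scores around -1, while the cluster at the lower left holds variants lost in both assays.

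Lower binding was called at positions inside and outside the groove. Of the 61 positions with at least 10 substitutions, 25 were lower in binding (41%) and 16 higher (26.2%). These counts were 40 and 5 on the unscaled score, and 39 and 7 on the growth rate. Among the 12 groove residues 8 were lower and 1 higher, with a median difference of -0.257, against -0.0276 over all 61. Of the 228 groove substitutions 53.5% were lower, against 27.1% of all. The 9 buried hydrophobic residues outside the groove divided evenly, 3 lower and 3 higher, with medians of -0.715 in binding and -0.632 in abundance. G319, G351, G356 and N363 had no variants and S320 had only 6 doubles, so they are not described.

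**Figure D2:**
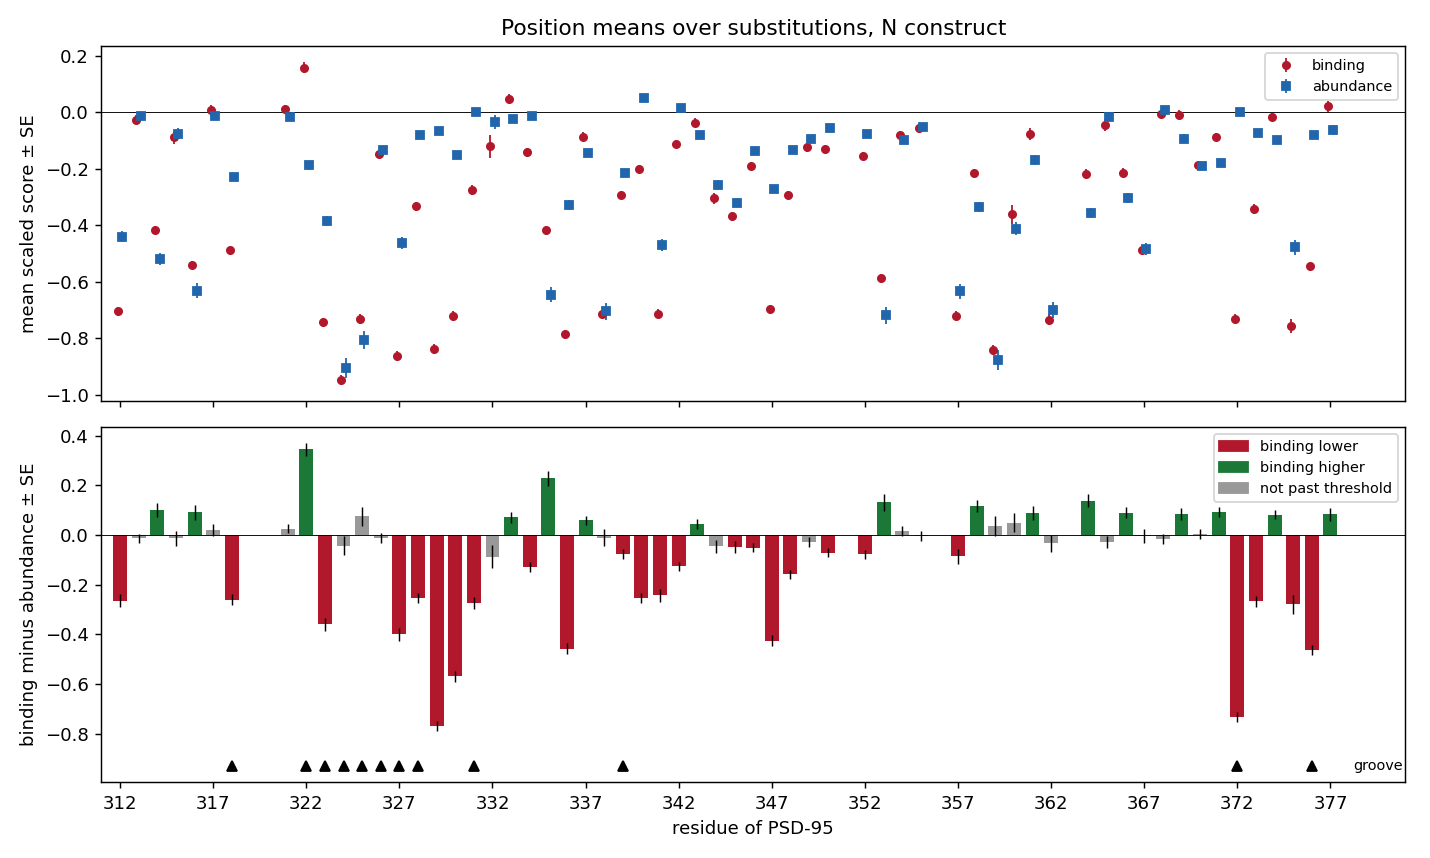
Upper panel, mean scaled score per position in binding (circles) and abundance (squares) with standard errors, and lower panel, their difference with its standard error, along the residue number, coloured by the call, with triangles under the groove residues. The deepest bars stand at G329 and H372, and the tallest stands at G322. The standard errors hold measurement error and leave out the spread between substitutions.

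Strand 2, which forms 1 wall of the groove and pairs with the ligand, was lower at 5 of its 6 positions, against 41% of all positions, with a median difference of -0.337. Of its 114 substitutions 81 were lower (71.1%) and 5 higher. G329 and G330, at the end of that strand, gave the first and the third lowest differences of the domain. At G329 the substitutions ran from -1.23 to -0.508 in binding (median -0.830) and from -0.518 to 0.123 in abundance (median -0.00170). The mean over 19 substitutions was -0.836 ± 0.0175 in binding and -0.0682 ± 0.0112 in abundance, a difference of -0.768 ± 0.0208 (adjusted p of 3.56e-296). Errors and p-values of position means, here and below, rest on measurement error and leave out the spread between substitutions. That spread was an SD of 0.198 for the difference at G329. The ranges overlapped through 1 substitution, the bulky G329W, which scored -1.04 in binding and -0.518 in abundance. Even the smallest change, G329A, scored -0.888 in binding and 0.123 in abundance.

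At G330 the mean was -0.721 ± 0.0164 in binding and -0.152 ± 0.0123 in abundance, a difference of -0.569 ± 0.0205 (adjusted p of 6.53e-168). All 19 substitutions were called lower. Proline was the mildest in binding there, with G330P at -0.293 in binding and -0.0847 in abundance.

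I327, whose side chain lines the groove, had a mean of -0.863 ± 0.0171 in binding and -0.463 ± 0.0207 in abundance (difference -0.40 ± 0.0268, adjusted p of 1.96e-49). Its substitutions fell into kinds. I327T scored -0.937 in binding and -0.0237 in abundance, and I327W, I327H and I327S were likewise low in binding (-0.851, -0.949 and -0.998) with less lost in abundance (-0.00173, -0.0865 and -0.258). Charged changes lost both readouts: I327K scored -1.04 in binding and -1.13 in abundance, and I327D -1.02 and -1.08. The mildest was I327F, at -0.252 in binding and 0.0164 in abundance.

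V328 was milder, with a difference of -0.254 ± 0.0196 (adjusted p of 1.86e-37), and carried its largest loss of binding with abundance kept at V328D, -0.768 in binding and -0.0331 in abundance. V328M scored -0.00753 in binding and 0.00687 in abundance. E331, a charged residue at the strand's end, had a mean of -0.274 ± 0.0183 in binding and -0.000964 ± 0.0133 in abundance (difference -0.273 ± 0.0226, adjusted p of 6.34e-33). Reversal of its charge in E331K gave -0.679 in binding and 0.0225 in abundance, whereas E331D, which keeps the charge, gave 0.0162 in binding and -0.0236 in abundance.

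N326, which opens strand 2, had a mean difference near 0 (-0.0125 ± 0.0196, adjusted p of 0.571) and its substitutions moved both ways. N326E scored -0.516 in binding and 0.0501 in abundance, and N326D -0.295 and 0.0473, both called lower. N326V scored 0.184 in binding and -0.193 in abundance, and N326I 0.0864 and -0.282, both called higher. Taken as a median over substitutions, N326 was higher by 0.0893 (adjusted p of 0.000112). In all, 16 positions had calls in both directions, and 4 had none.

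The carboxylate-binding loop was mixed. Of its 6 measured positions 2 were lower and 1 higher, with a median difference of -0.00793. L323, a leucine of that loop, had a mean of -0.743 ± 0.0170 in binding and -0.384 ± 0.0183 in abundance (difference -0.359 ± 0.0250, adjusted p of 4.06e-46). There L323E scored -1.08 in binding and -0.283 in abundance, while L323W scored -0.0563 and -0.0814. R318, a basic residue of the loop, had -0.488 ± 0.0163 in binding and -0.229 ± 0.0141 in abundance (difference -0.260 ± 0.0215, adjusted p of 8.05e-33), and was nearly neutral in R318K, at -0.0327 in binding and -0.0564 in abundance.

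The other loop residues G324 and F325 lost both readouts. G324 had a mean of -0.947 ± 0.0177 in binding and -0.905 ± 0.0361 in abundance, with no substitution above -0.839 in binding. F325 had -0.731 ± 0.0165 in binding and -0.806 ± 0.0325 in abundance. Neither difference passed the test (-0.0420 ± 0.0402, adjusted p of 0.369, and 0.0749 ± 0.0364, adjusted p of 0.0578). On the unscaled score both were called lower, at -0.589 for G324 and -0.358 for F325, a change of direction for F325. Exceptions within G324 were G324P, with -0.951 in binding and -0.328 in abundance, and G324D, with -0.876 and -0.535.

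G322, the glycine just before L323 in that loop, ran the other way and had the highest difference of all positions. Its substitutions ran from -0.0616 to 0.315 in binding (median 0.163) and from -0.555 to 0.0372 in abundance (median -0.101). The mean was 0.157 ± 0.0201 in binding and -0.188 ± 0.0158 in abundance, a difference of 0.345 ± 0.0255 (adjusted p of 1.23e-40), and it stayed higher on the unscaled score (0.402) and the growth rate (0.0467). Of the 42 substitutions in the domain with binding above 0.1, 13 were at G322.

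By class of replacement, aliphatic or aromatic residues gave the widest mean gap at G322 (0.540). Proline had 0.285, polar residues 0.199 and charged residues 0.188, although the charged G322R was among the widest single gaps. G322L scored 0.315 in binding and -0.387 in abundance, a difference of 0.702 ± 0.0711 (adjusted p of 1.30e-20), the highest of any single substitution with an error under 0.2. G322V followed at 0.675, G322I at 0.646, G322Y at 0.536, G322M at 0.533, G322R at 0.529 and G322F at 0.523. Acidic changes at this position did not pass the test: G322D scored -0.0616 in binding and 0.0371 in abundance, and G322E 0.00120 and 0.0372. When errors were widened by the spread of late stops, G322Y, G322M and G322F no longer passed (adjusted p values of 0.111, 0.0617 and 0.158).

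Helix 2, the other wall of the groove, was lower at 4 of 7 positions and higher at 3, against 41% and 26.2% of all positions, with a median of -0.267. Of its substitutions 47.4% were lower, against 27.1% of all. H372, the histidine of this helix that contacts a ligand side chain, was the clearest case. Its 19 substitutions ran from -1.39 to -0.354 in binding (median -0.709) and from -0.0956 to 0.0524 in abundance (median 0.00373), with no overlap. The mean was -0.732 ± 0.0167 in binding and 0.000626 ± 0.0108 in abundance, a difference of -0.732 ± 0.0199 (adjusted p of 5.69e-296).

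All 19 substitutions of H372 were called lower. H372N had the lowest difference of any single substitution: -2.06 ± 0.0874 in binding and -0.00898 ± 0.00742 in abundance on the deposited scale, or -1.39 and -0.0104 scaled, a difference of -1.38 ± 0.0820 (adjusted p of 4.75e-59). The binding score of H372N lay below the nonsense level of -1, so its difference is wider than a loss to that level would give. H372Y followed within the position at -1.01 in binding and 0.0451 in abundance. H372Q was the mildest, at -0.354 in binding and 0.0419 in abundance.

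A376, a turn further along the helix, had -0.544 ± 0.0159 in binding and -0.0807 ± 0.0114 in abundance (difference -0.464 ± 0.0196, adjusted p of 4.19e-123). Binding there ran from -1.01 to 0.0973. A376V was the exception, with 0.0973 in binding and 0.00126 in abundance, while A376N scored -0.804 and -0.0321. A376P lost both, at -1.01 in binding and -0.920 in abundance.

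The neighbouring A375, whose side chain faces the core, showed 3 patterns. A375Y, A375F and A375W scored -1.09, -1.07 and -0.972 in binding and -0.0258, -0.0118 and -0.0789 in abundance. Charged A375K and A375E lost both, with -1.02 and -1.03 in binding and -1.0 and -1.13 in abundance. A375H went the other way, with -0.575 in binding and -0.979 in abundance, and was called higher. The position mean was -0.757 ± 0.0252 in binding and -0.478 ± 0.0276 in abundance (difference -0.279 ± 0.0373, adjusted p of 2.49e-13).

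S371, which opens the helix, was higher (0.0924 ± 0.0201, adjusted p of 1.06e-05), with -0.0876 ± 0.0152 in binding and -0.180 ± 0.0132 in abundance. On the unscaled score it no longer passed (0.0324, adjusted p of 0.224).

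Strand 3, next to strand 2, was lower at 5 of 7 positions and higher at 1, against 41% and 26.2% of all positions. Of its substitutions 42.1% were lower, against 27.1% of all. I336, a buried isoleucine, had the fifth lowest difference of the domain, with -0.785 ± 0.0167 in binding and -0.328 ± 0.0165 in abundance (difference -0.457 ± 0.0235, adjusted p of 3.03e-83). Conservative changes there lowered binding: I336V scored -0.376 in binding and 0.0511 in abundance, I336L -0.447 and -0.0992, and I336M -1.12 and -0.222. I336D and I336E lost both, with -0.965 and -0.915 in binding and -1.04 and -0.952 in abundance.

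S339, the groove residue of strand 3, was lower by a small amount (-0.0776 ± 0.0204, adjusted p of 0.000293), with -0.293 ± 0.0151 in binding and -0.216 ± 0.0137 in abundance. Measured as distance from the running median of binding over abundance, it no longer passed (-0.0363, adjusted p of 0.0997). Its substitutions went both ways: S339D scored -0.356 in binding and 0.0975 in abundance, and S339P -0.388 and -0.650.

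Away from the groove, the region around helix 1 was lower at 6 of 9 positions and higher at 1, against 41% lower and 26.2% higher over all positions. Its single substitutions were lower in 37 of 171 (21.6%), under the 27.1% over all. Of the 6, G345 and P346 no longer passed with errors multiplied by 2 (adjusted p of 0.173 and of 0.102) or as medians over substitutions. A347 had -0.696 ± 0.0163 in binding and -0.271 ± 0.0149 in abundance (difference -0.426 ± 0.0221, adjusted p of 2.80e-81), the sixth lowest position. Small residues were mild: A347S scored -0.0754 in binding and -0.0909 in abundance, and A347T, called higher, 0.0508 and -0.109. Larger ones were low in binding with abundance partly kept, A347D at -0.971 and -0.380, and A347F at -0.931 and -0.362. Of 40 positions in neither the groove nor the buried set, 14 were lower and 12 higher, with a median of -0.0132.

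Higher binding relative to abundance outside G322 was smaller, and many of these calls depended on the scale. G335, in the loop between strands 2 and 3, had -0.417 ± 0.0159 in binding and -0.646 ± 0.0271 in abundance (difference 0.229 ± 0.0315, adjusted p of 1.20e-12), but -0.0366 on the unscaled score, which did not pass the test (adjusted p of 0.179). G335P scored 0.197 in binding and -0.191 in abundance, G335A 0.0563 and -0.265, and G335Q -0.00232 and -0.460, all called higher. G322 and G335 held 23 of the 105 higher calls, and 33 of the 105 had binding above the wild type.

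The other positions among the 10 highest were G364 (0.138 ± 0.0259), L353 (0.132 ± 0.0333), Q358 (0.118 ± 0.0233), I314 (0.102 ± 0.0272), I316 (0.0914 ± 0.0307), D366 (0.0901 ± 0.0226) and S361 (0.0894 ± 0.0272). Their adjusted p ran from 2.69e-07 at G364 to 0.00486 at I316. All but S361, which no longer passed (0.0349), turned negative on the unscaled score, and I314, I316 and L353 were then called lower (-0.151, -0.232 and -0.222). On the growth rate the same 3 positions were called lower. I314, I316 and L353 are buried hydrophobic residues with means between -0.586 and -0.417 in binding and between -0.719 and -0.519 in abundance. Single examples among the 10 highest were I314P, with -0.646 in binding and -1.19 in abundance, and G364V, with -0.834 and -1.31.

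Besides G322, 4 positions stayed higher on both the unscaled score and the growth rate, and they were named after their values were seen. These were G333 (0.0713 ± 0.0207), N369 (0.0846 ± 0.0232), Q374 (0.0821 ± 0.0187) and I377 (0.0837 ± 0.0263). On the unscaled score their differences ran from 0.0645 at Q374 to 0.0911 at G333. With the authors' errors multiplied by 2 and no extra variance, N369 (adjusted p of 0.0465) and Q374 still passed. G333 and I377 did not (adjusted p of 0.0575 and of 0.111). With errors widened to late stops, G333 and Q374 passed (adjusted p of 0.0396 and of 0.00318), whereas N369 and I377 did not (0.0765 and 0.177).

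By kind of replacement, proline had the largest shares of the 5 classes in either direction, 35% lower and 21.7% higher (n = 60). Charged residues had 24.0% lower and 7.86% higher (n = 229), polar residues 28.2% and 7.34% (n = 354), glycine 23.1% and 13.5% (n = 52), and aliphatic or aromatic residues 27.1% and 8.89% (n = 461). These shares differ little from the 27.1% and 9.08% over all substitutions, except for proline. Proline scored -0.637 on average in binding and -0.522 in abundance.

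**Figure D3:**
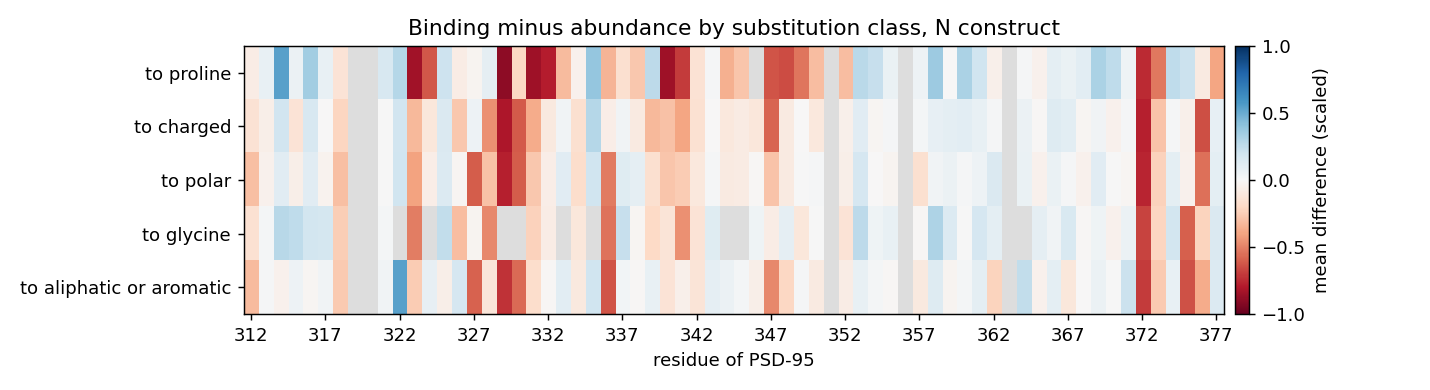
Mean difference between scaled binding and scaled abundance for each residue (horizontal axis) and class of replacement (rows), from -1 in red to 1 in blue, with grey where no substitution was measured. G329, G330 and H372 are red in every class measured except proline at G330, which is pale, while G322 is blue for aliphatic or aromatic residues.

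Double substitutions were lower in binding at a smaller share, 6935 of 38730 (17.9%), and higher at 694 (1.79%). Their errors were larger, with a median of 0.211 for the difference against 0.0630 for singles. The median double scored -0.902 in binding and -0.610 in abundance. Of 10830 doubles that kept abundance above -0.2, 4112 (38.0%) fell below -0.5 in binding, against 13.3% of singles. Doubles with 1 substitution in the groove were lower in 28.2% (n = 12465), those with both in it in 20.3% (n = 2569) and those with none in 12.2% (n = 23637). Among 1796 doubles made of substitutions that each scored within 0.1 of the wild type in both assays, 2.17% were lower and 0.947% higher.

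The position pattern recurred when the second substitution was such a quiet one. Over 61 positions, the median difference of these doubles followed the mean of the singles with r = 0.945, and 38 of the 41 positions called in singles had the same sign. The exceptions, I314, F337 and A343, were called higher in singles but had negative medians in these doubles (-0.0521, -0.0206 and -0.0708). For comparison, doubles made of quiet substitutions alone had a median difference of -0.0405 (n = 1796), so a small negative median is no clear change of sign. Several higher positions that kept their sign lay near 0, with 0.00887 at Q374, 0.0108 at G364, 0.0112 at I316 and 0.0187 at L353. Each position had 19 to 898 such doubles, with a median of 208. Both sets share the libraries and the wild type. The median of these doubles was -0.737 at G329 (n = 38), -0.708 at H372 (n = 57), -0.652 at G330 (n = 157), -0.606 at A376 (n = 100) and 0.429 at G322 (n = 19).

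**Figure D4:**
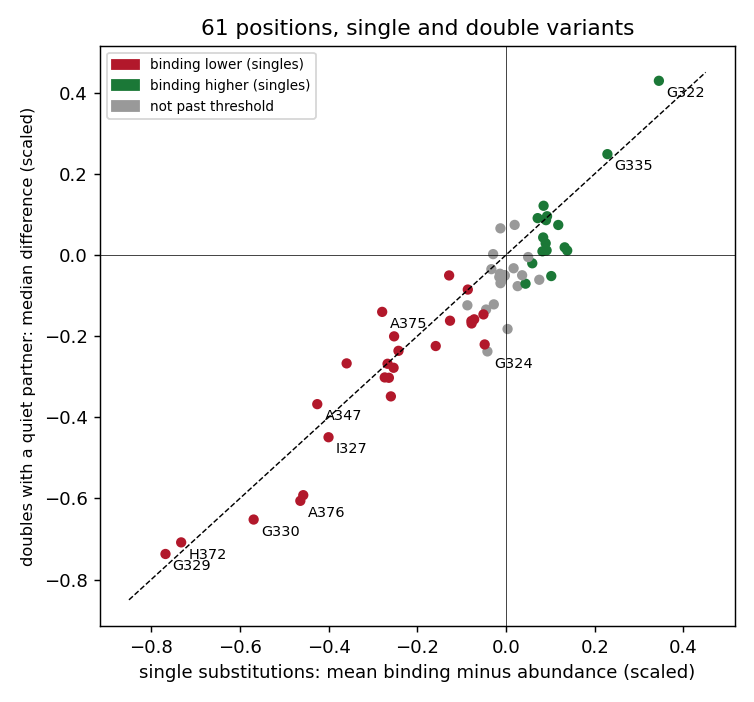
Median difference between scaled binding and scaled abundance of doubles with a quiet partner (vertical axis) against the mean difference of single substitutions (horizontal axis), 1 point for each of 61 positions, coloured by the single call, with a dashed line of equality. G329 and H372 lie at the lower left in both and G322 at the upper right, while G324 lies below the line.

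The lowest doubles among those with an error under 0.2 paired I327 with H372. I327T/H372S scored -1.19 in binding and 0.113 in abundance, a difference of -1.30 ± 0.188 (adjusted p of 1.84e-10). The next 4 were I327T/H372V (-1.29), I327T/H372A (-1.26), I327Y/H372V (-1.24) and I327Y/H372L (-1.20), all with abundance between 0.0503 and 0.124. The 5 highest were I314R/E352V (1.13 ± 0.199), L353H/R354I (1.11 ± 0.200), Q374P/I377V (0.931 ± 0.146), G335M/F337G (0.920 ± 0.131) and G335K/F337M (0.886 ± 0.149). In I314R/E352V the scores were 0.0717 in binding and -1.06 in abundance, although I314R alone scored -0.841 and -0.985.

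Whether the difference between both assays adds up over substitutions was tested on 38671 doubles with both singles measured. The difference of the double was below the sum of the single differences in 357 (0.923%) and above it in 1896 (4.9%). Of 16871 doubles whose summed binding was -1 or lower, 10.4% were above the sum, with a median departure of 0.228. Of 21800 doubles with a summed binding above -1 it was 0.665%, with a median of -0.0697. In the first set the median binding was -1.07, against a summed value of -1.45, below the nonsense level. With errors multiplied by 2, the counts fell to 9 below and 187 above the sum.

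The 5 largest departures above the sum were I327H/I338M (1.87 ± 0.228), I336M/A375Y (1.87 ± 0.552), G329V/I336F (1.81 ± 0.222), G330V/H372N (1.79 ± 0.368) and R312I/H372N (1.78 ± 0.512). Their sums ran from -2.0 to -1.22. In G329V/I336F the double scored -0.504 in binding and -0.695 in abundance, whereas G329V alone scored -1.01 and -0.0179, and I336F alone -0.874 and -0.248. The 5 largest below the sum were Q358E/L360P (-1.52 ± 0.473), A375H/A376V (-1.26 ± 0.349), I316P/F325S (-1.14 ± 0.358), I314P/I316S (-1.11 ± 0.217) and S361K/G364V (-1.09 ± 0.305).

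The same contrast was set against PDZ3, the domain alone, to ask whether the N extension moved it. Over 60 positions with at least 10 substitutions measured in all 4 sets, 4 had a lower difference in N than in PDZ3 (6.67%) and none a higher one (0%). At an unadjusted p under 0.05 these counts were 7 and 2. The median error was 0.0437 and the median difference of differences 0.000988. On the unscaled score 11 were lower and 1 higher, with the scale set on late stops 4 and 1, and on the growth rate 17 and 0.

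A347 stood first: its difference was -0.426 in N and -0.202 in PDZ3, a gap of -0.223 ± 0.0450 (adjusted p of 4.08e-05). Its binding mean was -0.696 in N and -0.802 in PDZ3, and its abundance mean -0.271 in N and -0.60 in PDZ3. I341, an isoleucine of strand 3, had -0.242 in N and -0.0344 in PDZ3 (gap -0.208 ± 0.0511, adjusted p of 0.00139), with abundance at -0.470 in N and -0.769 in PDZ3. G322 had 0.345 in N and 0.554 in PDZ3 (gap -0.209 ± 0.0569, adjusted p of 0.00458), and L323 -0.359 in N and -0.219 in PDZ3 (gap -0.140 ± 0.0467, adjusted p of 0.0408).

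At all 4 positions abundance was higher in N than in PDZ3 by more than binding was. Abundance was higher in N at 57 of the 60 positions and binding at 60 of 60. With the authors' errors multiplied by 2 and no extra variance, only A347 passed of these 4 (adjusted p of 0.0310). Only A347 passed likewise as a median over substitutions (5.29e-05), where I341, G322 and L323 had adjusted p of 0.0601, 0.319 and 0.832. The 4 positions with the lowest differences in N were low in PDZ3 too. These were G329 (-0.768 in N and -0.761 in PDZ3), H372 (-0.732 and -0.802), G330 (-0.569 and -0.548) and A376 (-0.464 and -0.546). None of these gaps passed the threshold, which does not show that the differences are equal. The gap at A376 was 0.0825 ± 0.0375. I336, the fifth lowest in N, had -0.457 in N and -0.342 in PDZ3 (gap -0.115 ± 0.0445, adjusted p of 0.0969). A347, the sixth, had the widest gap.

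**Figure D5:**
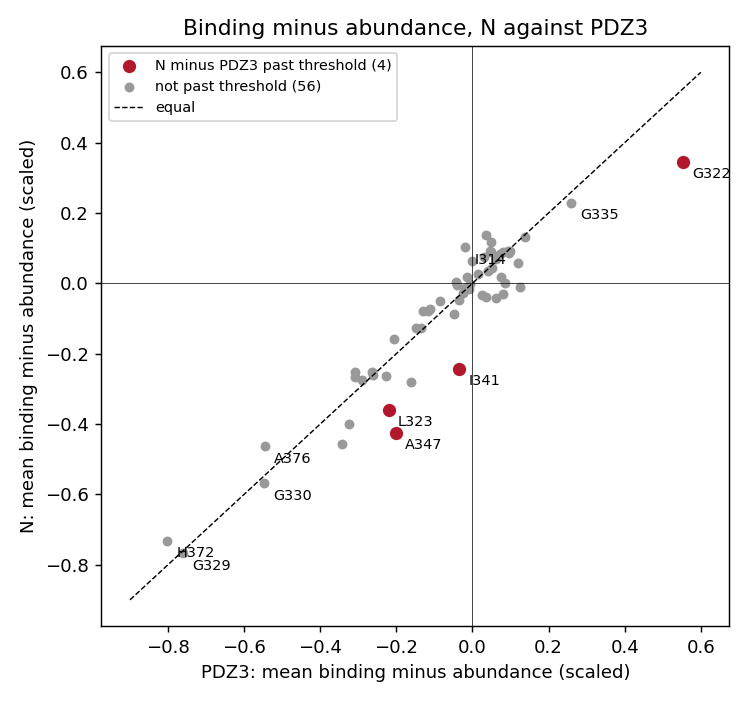
Mean difference between scaled binding and scaled abundance per position in N (vertical axis) and in PDZ3 (horizontal axis), 60 points, with the 4 positions whose difference of differences passed the threshold in red and a dashed line of equality. A347, I341, L323 and G322 lie below the line, while G329, H372, G330 and A376 lie near it at the lower left.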

How the data were processed

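The authors deposited 1 table for the whole series, holding a fitness score with its error and a growth rate with its error for each variant, construct and assay, merged over 3 cultures. The log base of the score is not stated and counts are not used here. Per the submitters' processing notes, cutadapt and FastQC were among the tools. Entries with a stop, or with a placeholder error of 50 or more, were left out of the missense sets, and the last 2 letters of each sequence were not read as residues. Each score was taken relative to the wild type and divided by the size of that set's median single nonsense score. Errors combined the authors' error of the variant and of the wild type, an extra variance and the analytic error of the nonsense median. The extra variance brought a median-based spread of synonymous variants over their errors to 1. With it, 9.67% in N binding, 7.64% in N abundance, 7.69% in PDZ3 binding and 16.2% in PDZ3 abundance still lay beyond 1.96 errors. That is more than a normal spread gives, so the p-values may be too small. The tests were two-sided normal tests with Benjamini-Hochberg adjustment (threshold 0.05), run in Python 3.11.15 with NumPy 2.4.6, pandas 2.3.3 and SciPy 1.17.1 and tested on simulated data. Counts or per-culture values would have been tested over cultures. Positions needed 10 substitutions. Positions named were those of the groove and the 10 lowest and 10 highest differences past the threshold. Substitutions named were the 10 lowest and 10 highest with an error under 0.2, and doubles the 5 lowest and 5 highest. Other substitutions were named after their values were seen, to show the spread within a position. Positions in N against PDZ3 were those past the threshold. Members and lists were chosen with earlier results of these data known. Tests of positions are not independent, since the wild type and the scale are common to all. No exact test over the 3 cultures could be run, because the authors merged them.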

Additional observations from a re-analysis of the deposited data

Results flagged for a closer look

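The difference between binding and abundance differed between N and PDZ3 at 4 of 60 positions, by a two-sided normal test of the difference of differences with Benjamini-Hochberg adjustment. The gap, N minus PDZ3, was -0.223 at A347, -0.209 at G322, -0.208 at I341 and -0.140 at L323. These are gaps between 2 constructs that share no library and that each had 3 cultures merged into 1 value. As a median over substitutions, A347 passed and G322, I341 and L323 did not (adjusted p of 0.319, 0.0601 and 0.832). With errors widened to late stops, A347 and I341 passed and G322 and L323 did not (adjusted p of 0.553 and of 0.0933). That setting left out the extra variance and its factor was 1 in PDZ3 binding, so errors in that set were narrower than in the main test.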

How the results depend on the processing

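No paired analysis was possible because the authors merged the cultures, and for the same reason leaving out single cultures could not be run. On the unscaled score, calls lower and higher were 40 and 5 for positions, 526 and 55 for singles, 40.2% and 0.718% of doubles, and 11 and 1 for N against PDZ3, with a mean single difference of -0.278. On the growth rate they were 39 and 7, 493 and 61, 30.4% and 0.834% of doubles, and 17 lower for N against PDZ3, with a mean of -0.0260. The scale set on late stops gave 1 higher for N against PDZ3. Of 61 positions, 11 changed direction (called under either scale) on the unscaled score, among them I314 (-0.151), I316 (-0.232), F325 (-0.358), G335 (-0.0366), L353 (-0.222), Q358 (-0.0199), G364 (-0.00289) and D366 (-0.0430), as did G364V (-0.0597). On the growth rate 6 did, among them I314 (-0.00781), I316 (-0.0148), F325 (-0.0256) and L353 (-0.0123). As a median over substitutions, N326 turned positive (0.0893), the single difference was -0.0204, and 2 positions were lower in N against PDZ3, with only A347 of the 4 named. With the authors' error alone, 236 singles were higher, departures from the sum were 1115 below and 2880 above, and 1 position was higher in N against PDZ3. With the authors' errors multiplied by 2 and no extra variance, calls were 5.22% and 0.235% of doubles, departures 9 and 187, and 1 position was lower in N against PDZ3. With errors widened to late stops, also without the extra variance, these were 3.89% and 0.119%, 5 and 71, and 2. Centred on synonymous variants, 7 positions were lower and 3 higher in N against PDZ3. The cause was not tested. The other counts of calls stayed within 1.5 times under the alternatives run.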

Other observations

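A few single substitutions scored below the nonsense level in binding. There were 7 below -1.1, L323Q (-1.45 ± 0.0611), H372N (-1.39 ± 0.0652), R318W (-1.35 ± 0.0759), G329C (-1.23 ± 0.0761), I338M (-1.19 ± 0.0419), L323P (-1.17 ± 0.0390) and I336M (-1.12 ± 0.0361). Their abundance ran from -0.958 at R318W to 0.0157 at G329C.

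Stops joined to a missense change gave the same order of values as single stops. With the stop at R312 to G344 the median was -1.07 in binding and -0.755 in abundance (n = 2119 doubles), and 8.35% were lower. With the stop from G345 on it was -1.06 in binding and -1.07 in abundance (n = 1765), and 0.227% were lower and 0.397% higher.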
